A study of Homo sapiens with 21 samples.

Results

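Expression of 10 genes of Notch signaling was followed through 21 RNA-seq libraries. They were the receptors NOTCH1, NOTCH2 and NOTCH3, the ligands JAG1, JAG2 and DLL1, and the target genes HES1, HES4, HEY1 and NRARP. They were chosen by gene symbol, mapped from the identifiers of the tables, out of 20970 genes that had a row in any of 4 expression tables. All 10 members had a row in the FADU overexpression table. There were 9 with a row in the FADU knockdown and mutant tables, HEY1 being the exception, and 8 in the BFTC909 knockdown table, with none for JAG2 and NRARP. A member without a row was not analysed in that table.

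Notch receptors sit in the cell membrane and are activated by ligands of the Jagged and Delta families on a neighboring cell. Ligand binding opens the receptor to cleavage by ADAM proteases and then by gamma-secretase. The released intracellular domain enters the nucleus, joins the DNA-binding protein RBPJ and a Mastermind co-activator, and turns on genes such as the HES and HEY transcriptional repressors and NRARP, a feedback inhibitor of the pathway. In squamous and urothelial epithelia the pathway is known for its role in differentiation.

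The libraries came from FADU, a human squamous carcinoma line of the head and neck, and from BFTC909, a human upper tract urothelial carcinoma line. Both lines were studied as scrambled controls (Scr-si) in normoxia (18% O2) and hypoxia (1% O2 for 18 h), and as METTL4 knockdown cells (METTL4-si) in hypoxia. METTL4 is the DNA methyltransferase whose role under hypoxia the study addressed. FADU cells were also studied in normoxia with a control vector, with METTL4 overexpression (METTL4-OE) or with overexpression of the long noncoding RNA RP11-390F4.3 (RP11-390F4.3-OE). Each of these 9 groups had 2 libraries. Knockdown and overexpression cells were stable clones by the study's methods. How many clones stood behind a group was not known here, and the part of clone differences in the results was not tested. In hypoxia, a single library of FADU CRISPR control cells was set beside 2 FADU clones, each with 1 library, whose METTL4 catalytic motif had been changed by prime editing. No METTL4-si library in normoxia was analysed here, and each mutant library stands for a single clone. The labels do not state separate cultures, so p-values measure the spread between these libraries, which may be technical. The columns of the RP11-390F4.3-OE cells were assigned by elimination, since their names match no label directly. RP11-390F4.3 itself could not be matched to a row, so its RNA was not checked in these libraries.

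Each replicated library held 19.0 to 25.4 M reads on genes, and each mutant-table library 17.8 to 20.1 M. METTL4 RNA did not differ detectably between METTL4-si and Scr-si in hypoxia by limma, at 25.7 ± 2.02 against 26.0 ± 0.910 normalized CPM (counts scaled to a common library size) in FADU (mean ± SD, n = 2; adjusted p = 0.900) and 13.3 ± 1.497 against 17.3 ± 2.41 in BFTC909 (adjusted p = 0.0717), so the knockdown is given by its label. It was 148 ± 13.4 in METTL4-OE against 34.1 ± 1.93 with the control vector. CA9, a carbonic anhydrase known as a hypoxia marker, rose from 2.44 to 34.4 with hypoxia in FADU (adjusted p = 6.93e-05) and from 0.766 to 55.1 in BFTC909 (adjusted p = 1.18e-05), and fell to 2.05 and 5.69 in METTL4-si (adjusted p = 5.45e-05 and 0.000104). The 8 squamous epithelial markers examined had rows in FADU, and their sum was 2677 and 2713 in METTL4-si against 3596 to 4057 in the other 4 knockdown libraries. BFTC909 libraries had rows for 4 of 9 urothelial or simple epithelial markers, without the uroplakins, KRT7 and KRT19, and for 5 of 6 fibroblast markers, whose sum was 1020 and 1114 in normoxia, 4447 and 4652 in hypoxia and 2481 and 2680 in METTL4-si. Libraries of the same group stood apart in markers of other cell types. The summed value of luminal breast markers was 719 in METTL4-si replicate 1 of FADU and 141 in Scr-si normoxia replicate 1, against 6.70 to 12.3 in the other 4 libraries of that table. It was 56.8 in RP11-390F4.3-OE replicate 2 against 9.78 in replicate 1. The sum of urothelial or simple epithelial markers was 1243 in METTL4-si replicate 2 of BFTC909 against 31.2 to 113 in the other 5 libraries, with KRT8 at 715 against 5.02 in replicate 1. The squamous sum of that library was 34.1 against 1.78 to 2.91 in the other 5. Luminal breast markers in BFTC909 had rows for 3 of 8, of which 2 or 3 reached a value of 1 in a library. They summed to 325 and 335 in normoxia, 999 and 1020 in hypoxia, and 314 and 533 in METTL4-si. The list includes the carbonic anhydrase CA12, and GATA3, which is also on the urothelial list. In FADU, urothelial or simple epithelial markers had rows for 7 of 9, and their sum was 3415 and 3435 with the control vector, 2329 and 2422 in METTL4-OE and 2694 and 2702 in RP11-390F4.3-OE. The sum of squamous markers was 3769.8 and 3875, 2982 and 3097, and 3108 and 3277 in the same groups, and 2569 in the CRISPR control against 1711 and 2146 in the mutant clones. In the FADU knockdown libraries the urothelial or simple epithelial sum was 3949 and 3460 in normoxia, 2113 and 2128 in hypoxia, and 3577 and 1509 in METTL4-si. The part of these markers in the results was not tested, and values without FADU METTL4-si replicate 1, FADU Scr-si normoxia replicate 1 and BFTC909 METTL4-si replicate 2, the marker-high libraries of the knockdown tables, are given beside some member results. In FADU this leaves 1 library each in Scr-si normoxia and METTL4-si. The spread then comes from the Scr-si hypoxia libraries alone, so no call is given there. In BFTC909 this leaves 1 METTL4-si library, so only the size of a METTL4-si difference is given.

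Levels were compared between genes only per kilobase of exon, as normalized CPM divided by exon length. In FADU Scr-si normoxia NRARP was highest at 35.9 ± 2.66 (SD, n = 2), followed by NOTCH2 at 29.4 ± 1.13, NOTCH1 at 22.5 ± 1.95 and JAG2 at 20.7 ± 0.107. HES1 followed at 15.3 ± 0.371, then JAG1 at 8.82 ± 0.330, DLL1 at 7.78 ± 0.343, NOTCH3 at 7.25 ± 0.768 and HES4 at 4.03 ± 0.124. NOTCH1 and JAG2, and DLL1 and NOTCH3, were closer to each other than the SD of one of the pair. In BFTC909 Scr-si normoxia NOTCH2 stood at 32.6 ± 0.485, and the next members were HES1 at 4.07 ± 0.514, JAG1 at 3.68 ± 0.158 and NOTCH1 at 1.78 ± 0.0132. HEY1 was at 0.556 ± 0.00243, HES4 at 0.475 ± 0.389, NOTCH3 at 0.185 ± 0.0475 and DLL1 at 0.0677 ± 0.0129. Differences between the neighbors HES1 and JAG1, HEY1 and HES4, and HES4 and NOTCH3 were within the SD of one of the pair. BFTC909 thus carried one abundant receptor RNA, NOTCH2, and FADU carried several. The 2 tables were scaled separately, so levels were not tested between lines. NOTCH2 shares long stretches with the NOTCH2NL genes on the same chromosome, and the counting may have split or dropped their shared reads.

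Across the comparisons, tested by limma on log2(value + 1) with Benjamini-Hochberg adjustment over all genes, the number of members called at an adjusted p under 0.05 was read against the share of all tested genes called. FADU hypoxia against normoxia called 2 of 9 tested members, both higher, against 24.4% of 16324 genes (11.7% higher and 12.7% lower). In FADU METTL4-si against Scr-si in hypoxia 2 members were higher and 3 lower of 9, against 34.7% (15.2% higher and 19.5% lower). BFTC909 hypoxia called 1 member higher and 1 lower of 6, against 45.6% of 14869 genes (21.2% higher and 24.5% lower), and BFTC909 METTL4-si called 4 of 6, all higher, against 32.3% (15.7% higher and 16.6% lower). METTL4-OE called 7 of 9 members, 1 higher and 6 lower, against 39.0% of 15644 genes (20.9% higher and 18.1% lower). RP11-390F4.3-OE called 9 of 9, 3 higher and 6 lower, against 52.8% (28.0% higher and 24.8% lower). Here and below, the genes behind these shares were not matched to the members for expression level, so the counts show no enrichment. The median log2 fold change of the tested members was 0.26 in FADU hypoxia, -0.08 in FADU METTL4-si, 0.23 in BFTC909 hypoxia, 0.62 in BFTC909 METTL4-si, -0.38 in METTL4-OE and -0.28 in RP11-390F4.3-OE, beside medians of all genes from -0.03 to 0.02. With the spread taken from the 2 compared groups alone, 6 members passed in FADU hypoxia, NOTCH1, NOTCH3, JAG1 and HES1 besides DLL1 and NRARP, and 4 in BFTC909 hypoxia, NOTCH1 and NOTCH3 besides NOTCH2 and HES1. In these bulk libraries fewer cells that express a gene and less RNA per cell cannot be told apart. The hypoxia and METTL4-si comparisons of a line share the Scr-si hypoxia libraries, and both overexpression comparisons share the control vector libraries.

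**Figure D1:**
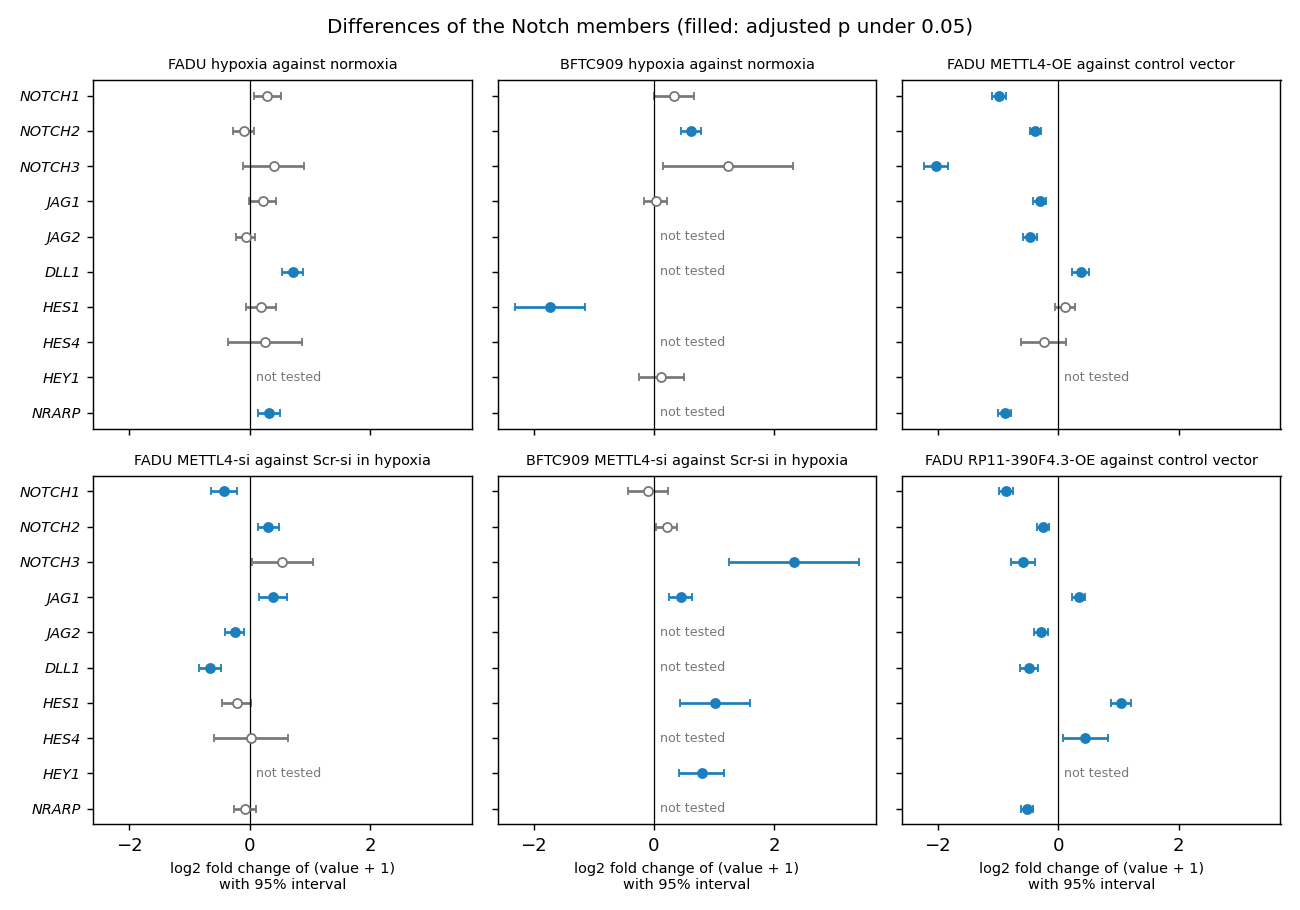
Log2 fold change of (value + 1) of each member in 6 comparisons, with 95% intervals from limma; filled points have an adjusted p under 0.05, and members without a row or under the filter on low values are marked as not tested. NOTCH1, NOTCH2, NOTCH3, JAG2 and NRARP lie left of 0 in both overexpression comparisons, and HES1 in BFTC909 hypoxia lies furthest left among the knockdown comparisons, at -1.73.

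Among the receptors, NOTCH1 (chromosome 9, 139388885 to 139440500, minus strand, in GRCh37), the receptor best known as a driver of squamous differentiation, was lower in both overexpression groups. Its values were 258.1 and 258.6 with the control vector, 136 and 125 in METTL4-OE, and 136.5 and 146 in RP11-390F4.3-OE. Both overexpression groups lay below the control libraries without overlap. NOTCH1 fell by 0.98 on the log2 scale in METTL4-OE (SE 0.05, adjusted p = 5.05e-09, limma), a 1.98-fold decrease, and by 0.87 in RP11-390F4.3-OE (SE 0.05, adjusted p = 1.34e-08). In FADU knockdown libraries NOTCH1 stood at 299 and 264 in normoxia, 325 and 366 in hypoxia, and 264 and 248 in METTL4-si. The hypoxic Scr-si libraries were the highest. The hypoxia difference of 0.30 missed the threshold (95% interval 0.08 to 0.51, adjusted p = 0.0587, limma), while METTL4-si was lower than Scr-si by a log2 fold change of -0.43 (SE 0.09, adjusted p = 0.0130). The latter call was lost without Scr-si hypoxia replicate 2 (-0.34). The hypoxia difference was called by edgeR on whole reads (0.33, adjusted p = 0.0480), and was 0.38 without the marker-high libraries. In BFTC909 NOTCH1 was 22.5 and 22.2 in normoxia, 27.5 and 29.6 in hypoxia, and 22.5 and 31.1 in METTL4-si. Neither BFTC909 comparison of NOTCH1 passed the threshold in limma, with log2 differences of 0.34 (adjusted p = 0.0895) and -0.10 (adjusted p = 0.614). Without METTL4-si replicate 2 the latter was -0.33, and at the other end of the settings tried it was 0.12, in the opposite direction. The hypoxia difference of NOTCH1 was called with METTL4-si replicate 1 or 2 left out of the fit (adjusted p = 0.000409 and 0.000485).

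NOTCH2 (chromosome 1, 120454176 to 120643366, minus strand), the most abundant receptor of BFTC909, rose with hypoxia in that line. In BFTC909 its values were 539.8 and 551 in normoxia, 837 and 840.3 in hypoxia, and 1022 and 922 in METTL4-si. The 3 groups did not overlap. The rise with hypoxia was 1.54-fold (log2 0.62, SE 0.07, adjusted p = 0.000581, limma). The further difference of METTL4-si, 0.21 on the log2 scale, missed the threshold (adjusted p = 0.0599, limma). It was 0.29 without METTL4-si replicate 2, with 1 library left in that group. In FADU NOTCH2 was 479 and 506 in normoxia, 453 and 465 in hypoxia, and 546 and 595 in METTL4-si. The FADU hypoxia difference was -0.10 (95% interval -0.28 to 0.07), and it was -0.14 without the marker-high libraries. In FADU, NOTCH2 in METTL4-si was higher by 0.31 (SE 0.07, adjusted p = 0.0180, limma). This call was lost without Scr-si hypoxia replicate 1 or 2. It was also lost with median centering (0.27, adjusted p = 0.115, limma). In the overexpression libraries NOTCH2 fell from 459 and 476 to 352 and 364 in METTL4-OE and to 391 and 393 in RP11-390F4.3-OE. These decreases, of 0.38 and 0.25 on the log2 scale, were smaller than those of NOTCH1 and each passed the threshold (adjusted p = 1.01e-05 and 0.000247, limma).

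NOTCH3 (chromosome 19, 15269849 to 15311806, minus strand), a receptor known from vascular smooth muscle and from epithelial tumors, had the widest range of the receptors. With the control vector it was 56.0 and 60.5, against 14.0 and 13.1 in METTL4-OE and 34.4 and 43.3 in RP11-390F4.3-OE. METTL4-OE was lowest. NOTCH3 fell 4.08-fold in METTL4-OE (log2 -2.03, SE 0.09, adjusted p = 1.34e-09, limma) and less in RP11-390F4.3-OE (log2 -0.58, SE 0.09, adjusted p = 0.000127). The decrease in RP11-390F4.3-OE was -0.74 without its replicate 2. In BFTC909 the values were 2.06 and 1.43 in normoxia, 4.67 and 6.21 in hypoxia, and 17.2 and 55.9 in METTL4-si, from 34 to 1110 reads. METTL4-si replicate 2, the library with the high KRT8, stood above replicate 1, and both stood above the other 4 libraries. NOTCH3 was 5.03-fold higher in METTL4-si than in Scr-si in hypoxia (log2 2.33, 95% interval 1.25 to 3.41, adjusted p = 0.00840, limma). Without METTL4-si replicate 2 this difference was 1.51, with 1 library left in that group. Without Scr-si hypoxia replicate 1 or 2 it was 2.16 or 2.50 and missed the threshold. With hypoxia NOTCH3 in BFTC909 differed by 1.23 (95% interval 0.15 to 2.31, adjusted p = 0.0623), and this difference was called with METTL4-si replicate 1 or 2 left out of the fit (adjusted p = 4.98e-06 and 6.98e-06) and with a replicate block (adjusted p = 0.0354). In FADU NOTCH3 was 73.3 and 63.1 in normoxia, 78.4 and 103 in hypoxia, and 163 and 107 in METTL4-si, where replicate 1, the library with breast markers, was the highest. Neither FADU comparison passed the threshold, with log2 differences of 0.40 (adjusted p = 0.216, limma) and 0.55 (adjusted p = 0.0919). Without METTL4-si replicate 1 and Scr-si normoxia replicate 1 they were 0.51 and 0.24, with 1 library left in each of those groups.

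**Figure D2:**
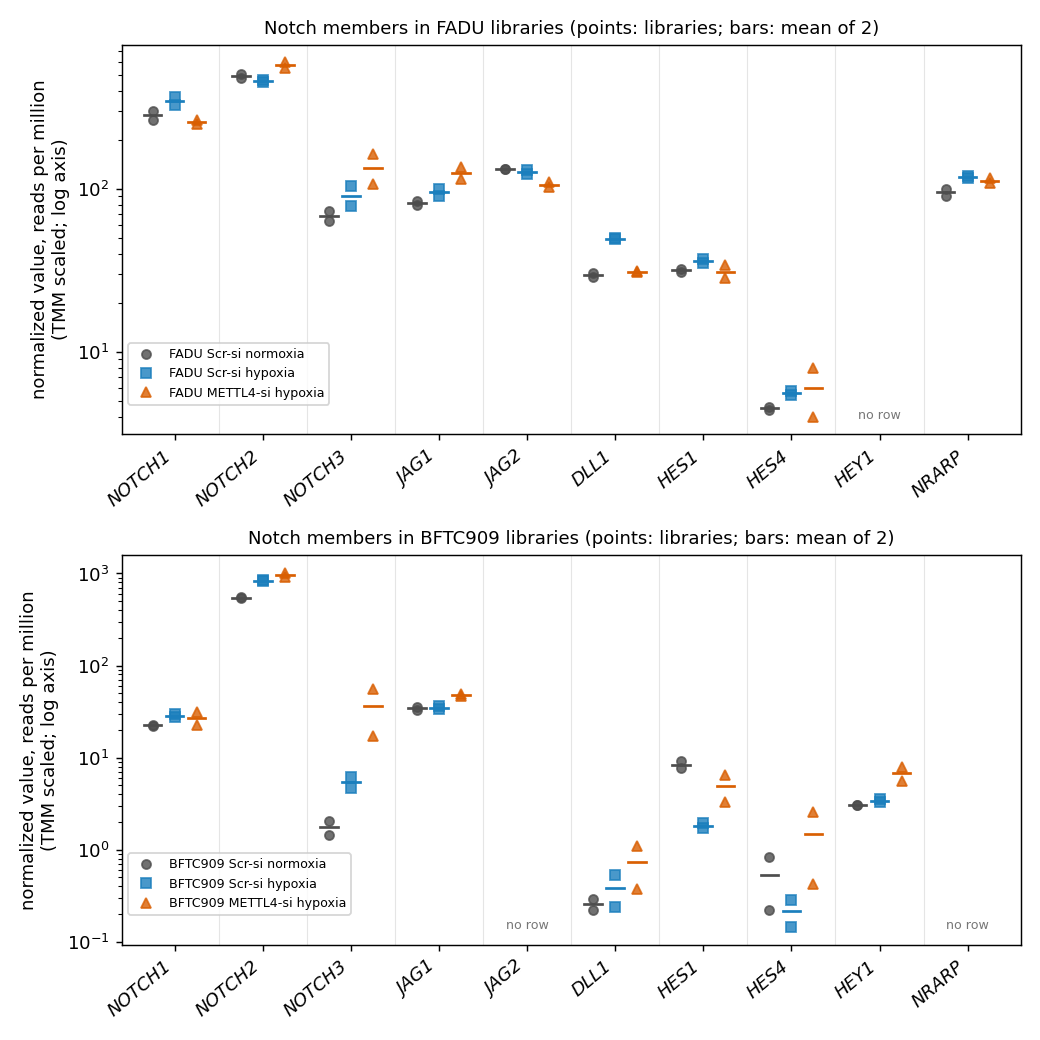
Normalized CPM of each member, on a log axis, in each library of the FADU (top) and BFTC909 (bottom) knockdown tables; points are libraries and bars the mean of 2. DLL1 in FADU sits near 50 in both hypoxic Scr-si libraries and near 30 in the other 4, and HES1 in BFTC909 is lowest in the hypoxic Scr-si libraries, at 1.93 and 1.72.

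Among the ligands, DLL1 (chromosome 6, 170591294 to 170615653, minus strand), a Delta-family ligand, was highest in hypoxic control cells of FADU. Its values were 28.8 and 30.6 in normoxia, 49.1 and 50.03 in hypoxia, and 30.8 and 31.3 in METTL4-si. The hypoxic Scr-si libraries stood above the other 4 without overlap. DLL1 rose 1.65-fold with hypoxia (log2 0.72, SE 0.07, adjusted p = 0.00159, limma) and was 1.58-fold lower in METTL4-si than in Scr-si (log2 -0.66, SE 0.07, adjusted p = 0.00127). Both calls remained with each library left out in turn and under the other settings tried, with log2 fold changes from 0.65 to 0.77 and from -0.70 to -0.60. In the overexpression libraries DLL1 was 30.1 and 31.7 with the control vector, 41.5 and 39.2 in METTL4-OE, and 22.6 and 21.0 in RP11-390F4.3-OE. The overexpression groups lay on opposite sides of the control. DLL1 rose in METTL4-OE (log2 0.37, SE 0.07, adjusted p = 0.000646, limma), fell by 0.49 in RP11-390F4.3-OE (adjusted p = 4.76e-05), and differed directly between RP11-390F4.3-OE and METTL4-OE by -0.86 (SE 0.07, adjusted p = 2.01e-07). In BFTC909 DLL1 had 5 to 22 reads in a library and was not tested.

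JAG1 (chromosome 20, 10618332 to 10654647, minus strand), the Jagged ligand associated with hereditary bile duct and heart defects, was higher in METTL4-si in both lines. In BFTC909 it was 33.2 and 35.2 in normoxia, 33.5 and 36.5 in hypoxia, and 48.9 and 47.1 in METTL4-si. Normoxia and hypoxia overlapped and METTL4-si stood above both. The BFTC909 METTL4-si difference was 0.45 on the log2 scale (SE 0.08, adjusted p = 0.00587, limma; 0.39 and adjusted p = 0.0689 without Scr-si hypoxia replicate 1), and the hypoxia difference was 0.03 (95% interval -0.16 to 0.22). In FADU JAG1 was 79.8 and 84.2 in normoxia, 90.9 and 100.1 in hypoxia, and 115 and 136 in METTL4-si. The hypoxia difference of JAG1 in FADU was 0.22 (adjusted p = 0.148, limma), and 0.18 without the marker-high libraries. Its METTL4-si difference in FADU was 0.39 (SE 0.10, adjusted p = 0.0222, limma). This call was lost without any one of Scr-si hypoxia replicate 1 (0.32) or replicate 2 (0.46) or Scr-si normoxia replicate 2 (0.39). It was also lost with median centering (0.34, adjusted p = 0.0831, limma). In the overexpression libraries JAG1 was 76.0 and 75.2 with the control vector, 62.0 and 59.7 in METTL4-OE, and 94.8 and 97.2 in RP11-390F4.3-OE. JAG1 thus fell by 0.31 in METTL4-OE (adjusted p = 0.000215, limma) and rose by 0.34 in RP11-390F4.3-OE (adjusted p = 5.95e-05), with a direct difference of 0.65 between the overexpression groups (SE 0.05, adjusted p = 1.28e-07).

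JAG2 (chromosome 14, 105607319 to 105635161, minus strand), the other Jagged ligand, was 132 and 133 in FADU normoxia, 129 and 123 in hypoxia, and 110.1 and 102 in METTL4-si. Hypoxia differed from normoxia by -0.07 (95% interval -0.23 to 0.09), and METTL4-si was lower than Scr-si by -0.25 (SE 0.07, adjusted p = 0.0292, limma). The METTL4-si call was lost without any one Scr-si library. It was also lost without the trend (adjusted p = 0.0710, limma) and with the 2 compared groups alone (adjusted p = 0.0692, limma). JAG2 fell from 108 and 113 with the control vector to 83.0 and 76.5 in METTL4-OE and to 89.6 and 91.5 in RP11-390F4.3-OE, by 0.47 and 0.28 on the log2 scale (adjusted p = 1.12e-05 and 0.000522, limma).

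**Figure D3:**
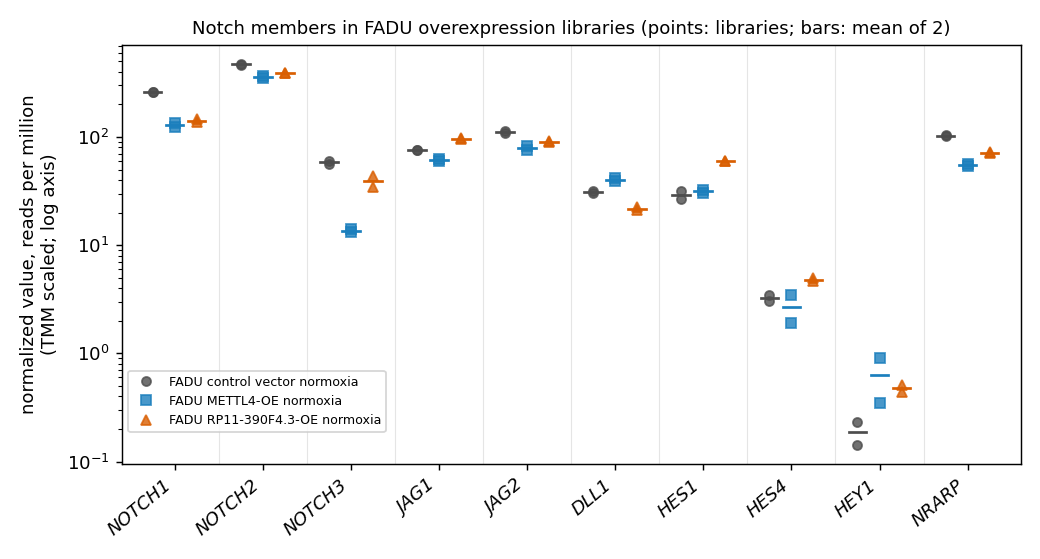
Normalized CPM of each member, on a log axis, in the FADU overexpression libraries; points are libraries and bars the mean of 2. NOTCH1, NOTCH3 and NRARP sit lower in METTL4-OE than with the control vector, and HES1 is near 60 in RP11-390F4.3-OE and between 26.4 and 32.3 in the other 4 libraries.

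Among the target genes, HES1 and HES4 encode basic helix-loop-helix repressors, and NRARP encodes an ankyrin-repeat protein that limits Notch signaling. Promoter windows of 8 of the 10 members were examined in the RefSeq promoter table on GRCh38.p14. DLL1 had no entry there, and HEY1 was not looked up. The 250 bases before the annotated start are printed for HES1 (chr3:194135898-194136147, plus strand), HES4 (chr1:1000098-1000347, minus strand) and NRARP (chr9:137302272-137302521, minus strand), because these targets moved differently from each other. Capitals mark TGGGAA, the core of the sequence bound by RBPJ, searched on both strands.
HES1: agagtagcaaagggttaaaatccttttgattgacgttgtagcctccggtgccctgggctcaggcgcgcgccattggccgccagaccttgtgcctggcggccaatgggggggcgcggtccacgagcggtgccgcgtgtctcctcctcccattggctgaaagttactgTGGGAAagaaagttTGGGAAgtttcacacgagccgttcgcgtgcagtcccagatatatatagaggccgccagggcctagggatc
HES4: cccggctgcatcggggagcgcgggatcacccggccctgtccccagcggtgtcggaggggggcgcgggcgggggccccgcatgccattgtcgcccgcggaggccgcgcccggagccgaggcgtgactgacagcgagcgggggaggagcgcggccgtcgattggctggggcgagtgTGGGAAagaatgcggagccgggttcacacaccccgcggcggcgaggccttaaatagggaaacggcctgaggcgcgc
NRARP: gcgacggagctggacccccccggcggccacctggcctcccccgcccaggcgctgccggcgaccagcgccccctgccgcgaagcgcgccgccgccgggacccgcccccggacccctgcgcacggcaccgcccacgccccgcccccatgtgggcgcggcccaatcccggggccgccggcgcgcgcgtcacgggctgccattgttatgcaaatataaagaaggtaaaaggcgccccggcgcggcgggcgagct
The HES1 window held 2 copies, from 84 to 79 and from 70 to 65 bases before the start, and the HES4 window held 1, from 76 to 71 bases before it. The NRARP window held none, and neither did those of NOTCH1, NOTCH2, NOTCH3, JAG1 and JAG2. Of 27305 promoters of the same length, 21.1% held TGGGAA at least once and 2.92% at least 2 times. ACGTG, a core of the hypoxia response element, was in the JAG1 window alone among the 8 members, against 18.7% of promoters, and the related GCGTG was in 7 of 8 windows, all except that of NOTCH2, against 31.9%. The promoters counted were not matched to the members for base composition, so these shares show no enrichment. A match describes these letters in this window and shows no binding.

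HES1 (chromosome 3, 193853937 to 193856521, plus strand, in GRCh37) responded in BFTC909 and in RP11-390F4.3-OE. In BFTC909 its values were 9.13 and 7.63 in normoxia, 1.93 and 1.72 in hypoxia, and 3.33 and 6.54 in METTL4-si, from 36 to 204 reads in a library. The groups did not overlap, with hypoxic Scr-si the lowest. HES1 was 3.31-fold lower with hypoxia (log2 -1.73, SE 0.25, adjusted p = 0.00139, limma), and this call held under every setting tried, with log2 fold changes from -2.19 to -0.97. It was 2.03-fold higher in METTL4-si than in Scr-si (log2 1.02, SE 0.25, adjusted p = 0.0189, limma). This log2 difference was 0.62 without METTL4-si replicate 2, with 1 library left in that group. The METTL4-si call was lost without Scr-si hypoxia replicate 1 or 2, at 1.07 and 0.97 (adjusted p = 0.0930 and 0.119). In FADU HES1 was 31.04 and 32.1 in normoxia, 35.3 and 36.99 in hypoxia, and 33.9 and 28.3 in METTL4-si. Neither FADU comparison passed the threshold, with differences of 0.19 (95% interval -0.05 to 0.43) and -0.22 (-0.46 to 0.02). Without METTL4-si replicate 1 the METTL4-si difference of HES1 was -0.34, and it was the same without both marker-high libraries of FADU. The hypoxia difference was 0.17 without the marker-high libraries. In the overexpression libraries HES1 was 31.4 and 26.4 with the control vector, 32.3 and 30.4 in METTL4-OE, and 60.1 and 60.5 in RP11-390F4.3-OE. RP11-390F4.3-OE was 2.05-fold above the control (log2 1.04, SE 0.08, adjusted p = 1.02e-07, limma), with the METTL4-OE difference at 0.12 (95% interval -0.05 to 0.28). Without control vector replicate 1 the METTL4-OE difference of HES1 was 0.24, with 1 control library left. The direct difference between RP11-390F4.3-OE and METTL4-OE was 0.92 (SE 0.08, adjusted p = 2.80e-07).

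NRARP (chromosome 9, 140194083 to 140196723, minus strand) was 89.9 and 99.8 in FADU normoxia, 116 and 120.5 in hypoxia, and 108 and 116 in METTL4-si. It rose 1.25-fold with hypoxia (log2 0.32, SE 0.08, adjusted p = 0.0278, limma). This call was lost without any one of the Scr-si libraries, with log2 differences from 0.24 to 0.39. It was also lost without the trend (adjusted p = 0.0615, limma) and with median centering (adjusted p = 0.0511, limma). METTL4-si differed from Scr-si by -0.08 (95% interval -0.27 to 0.10). With the control vector NRARP was 102 and 104, and it fell to 56.2 and 53.7 in METTL4-OE and to 72.0 and 70.7 in RP11-390F4.3-OE. The decreases were 0.89 and 0.52 on the log2 scale (adjusted p = 9.42e-09 and 1.42e-06, limma), so NRARP was lower in the RP11-390F4.3-OE libraries in which HES1 was higher.

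HES4 (chromosome 1, 934342 to 935552, minus strand) was low in FADU, at 4.40 and 4.60 in normoxia, 5.44 and 5.75 in hypoxia, and 7.94 and 4.005 in METTL4-si. Replicate 1 of METTL4-si, the library with breast markers, was the highest and replicate 2 the lowest. HES4 differed by 0.02 in METTL4-si (adjusted p = 0.958, limma). The difference was -0.40 without replicate 1 and 0.44 without replicate 2, each with 1 library left in that group. Its hypoxia difference was 0.26 (95% interval -0.35 to 0.87). With the control vector HES4 was 3.43 and 3.07, against 3.43 and 1.90 in METTL4-OE and 4.95 and 4.67 in RP11-390F4.3-OE. The METTL4-OE difference of HES4 was -0.24 (adjusted p = 0.292, limma). It was -0.55 without METTL4-OE replicate 1, with 1 library left in that group. RP11-390F4.3-OE was higher by 0.45 (SE 0.17, adjusted p = 0.0424, limma), a call lost without any one library of either group. It was also lost with edgeR on whole reads (adjusted p = 0.0504). In limma it was lost without the trend (adjusted p = 0.101) and with median centering (adjusted p = 0.0823). In BFTC909 HES4 had 3 to 51 reads in a library and was not tested, and the 51 reads were in METTL4-si replicate 2. HEY1 (chromosome 8, 80674606 to 80680092, minus strand), a repressor of the HES family, was tested in BFTC909 alone. It was 3.04 and 3.06 in normoxia, 3.28 and 3.54 in hypoxia, and 7.83 and 5.64 in METTL4-si, from 68 to 167 reads. METTL4-si libraries lay above the other 4. HEY1 was 1.74-fold higher in METTL4-si (log2 0.80, SE 0.16, adjusted p = 0.00885, limma). This log2 difference was 1.004 without METTL4-si replicate 2, with 1 library left in that group. The HEY1 call was lost without Scr-si hypoxia replicate 1 or 2. Its hypoxia difference was 0.12 (95% interval -0.25 to 0.49). In the FADU overexpression table HEY1 had 3 to 20 reads in a library and was not tested.

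Of the 9 members tested between RP11-390F4.3-OE and METTL4-OE, 7 were higher and 1 lower, against 54.2% of 15644 genes (28.3% higher and 25.8% lower). Besides DLL1, JAG1 and HES1, the largest differences were those of NOTCH3 (log2 1.45, SE 0.09, adjusted p = 2.30e-08, limma) and HES4 (0.70, SE 0.17, adjusted p = 0.00399). NRARP differed by 0.37, JAG2 by 0.18 and NOTCH2 by 0.13. NOTCH1 differed by 0.12 (95% interval 0.01 to 0.23, adjusted p = 0.0705) and was not called. Without METTL4-OE replicate 2 there were 5 calls, with HES4 at 0.39 (adjusted p = 0.0687), JAG2 at 0.12 (adjusted p = 0.139) and NOTCH2 at 0.15 (adjusted p = 0.0560). The JAG2 and NOTCH2 calls were also lost without RP11-390F4.3-OE replicate 2, the library with breast markers (adjusted p = 0.0558 and 0.0599), without the trend (adjusted p = 0.0659 and 0.105) and with median centering (adjusted p = 0.127 and 0.387), and that of NOTCH2 without METTL4-OE replicate 1 (adjusted p = 0.171). The NOTCH1 difference was 0.18 without METTL4-OE replicate 1 and 0.16 without RP11-390F4.3-OE replicate 1, each with 1 library left in that group.

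The difference between the lines was tested itself, as the FADU response minus the BFTC909 response, for the 5 members that passed the filter in both tables. For hypoxia 2 of 5 were called, 1 higher and 1 lower, against 25.9% of 13595 genes (14.3% higher and 11.6% lower). HES1 differed by 1.92 (95% interval 1.24 to 2.59, adjusted p = 0.00177, limma) and NOTCH2 by -0.72 (-0.94 to -0.50, adjusted p = 0.000852). NOTCH1, at -0.04 (-0.45 to 0.37), JAG1, at 0.18 (-0.10 to 0.47), and NOTCH3, at -0.83 (-2.17 to 0.51), were not called. The NOTCH3 difference in hypoxia was called with the 4 compared groups alone (adjusted p = 0.00435, limma), and was -0.72 without the marker-high libraries. For METTL4-si 1 of 5 was called, and it was lower, against 25.3% (9.79% higher and 15.5% lower). HES1 differed by -1.24 (-1.91 to -0.56, adjusted p = 0.0151), a call lost without FADU or BFTC909 Scr-si hypoxia replicate 2 (adjusted p = 0.0576 and 0.0564), and NOTCH3 by -1.78 (-3.13 to -0.44, adjusted p = 0.0545). Without the marker-high libraries the METTL4-si differences were -0.96 for HES1 and -1.26 for NOTCH3. JAG1 differed by -0.06 between the lines (-0.34 to 0.22), NOTCH1 by -0.33 (-0.73 to 0.08) and NOTCH2 by 0.10 (-0.12 to 0.32). The METTL4-si difference of NOTCH1 between the lines was -0.55 without BFTC909 METTL4-si replicate 1, with 1 library left in that group.

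**Figure D4:**
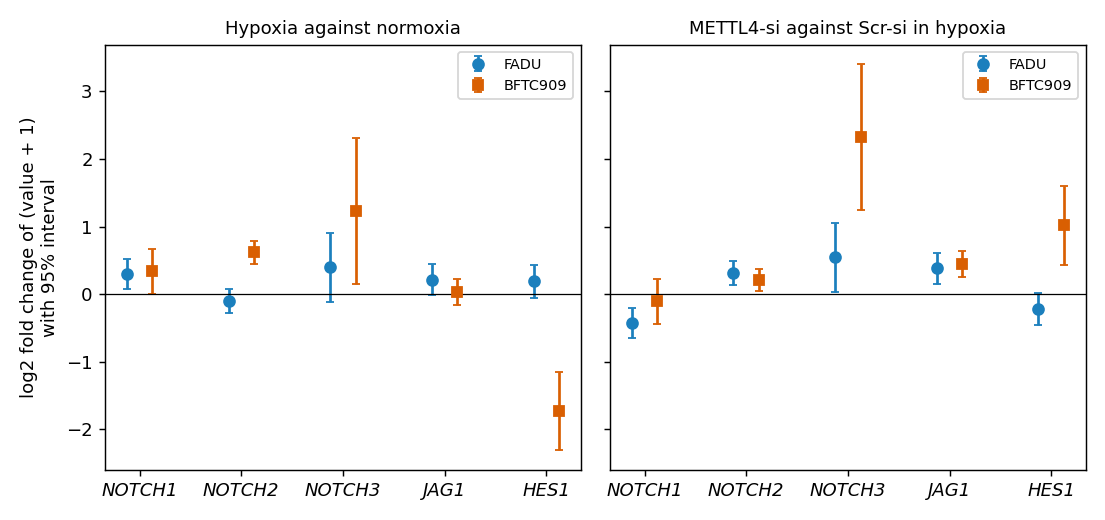
Log2 fold change of (value + 1) with 95% intervals from limma, in FADU (circles) and BFTC909 (squares), for the 5 members tested in both lines; left, hypoxia against normoxia, and right, METTL4-si against Scr-si in hypoxia. HES1 lies at 0.19 in FADU and -1.73 in BFTC909 on the left, and at -0.22 and 1.02 on the right.

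In the METTL4 mutant table there was no replicate of the control, so ratios were described without a test. JAG1 was the only member of 9 past 1.3-fold in the same direction in both clones, at 55.8 in the control, 29.1 in clone 1 and 23.5 in clone 2, which are log2 ratios of -0.92 and -1.21. This limit was passed by 20.7% of all 15719 genes in this table, 8.94% higher and 11.8% lower. NOTCH3 was 66.0 in the control, 24.8 in clone 1 and 60.9 in clone 2, and NRARP was 39.5, 22.5 and 44.5, so that the clones differed from each other. NOTCH2 was 294, 235 and 192, NOTCH1 was 287, 239 and 229, and DLL1 was 24.6, 20.3 and 18.6, each lower in both clones, with at least one clone within 1.3-fold. JAG2 was 77.9, 73.2 and 86.0, HES1 was 21.8, 18.9 and 21.9, and HES4 was 2.46, 2.41 and 2.45, near the control in each clone. The median log2 ratio of the 9 members was -0.27 in clone 1 and -0.11 in clone 2, against 2.08e-05 and -0.01 over all genes.

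**Figure D5:**
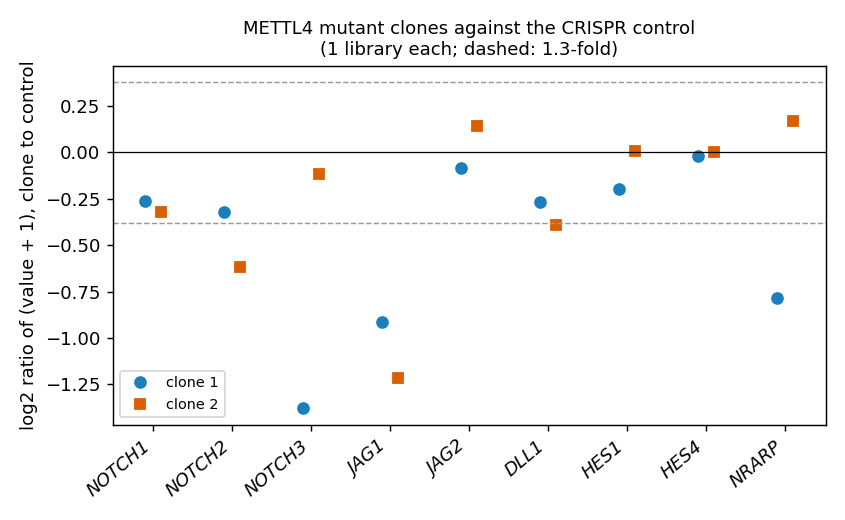
Log2 ratio of (value + 1) of each METTL4 mutant clone (circles, clone 1; squares, clone 2) to the 1 CRISPR control library in hypoxia, with dashed lines at 1.3-fold. JAG1 lies below the lower line in both clones, NOTCH3 and NRARP in clone 1 alone, and NOTCH2 and DLL1 in clone 2 alone.

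The other 55 genes of a Notch pathway list, which covers further receptors, ligands and targets, receptor cleavage, glycosylation, trafficking, the nuclear complex and corepressors, were counted in the same fits. NOTCH4, DLL3, DLL4, DLK1, HES5, HES7 and DTX1 had no row in any table. In FADU hypoxia 5 of 47 tested rose and 11 fell, beside 11.7% and 12.7% of all genes. The largest changes were those of NEURL1, a ubiquitin ligase acting on ligands (log2 -1.001, SE 0.14, adjusted p = 0.00463, limma), DLK2, a noncanonical ligand (0.84), and DNER, another noncanonical ligand (-0.80). In FADU METTL4-si 7 of 47 rose and 10 fell, beside 15.2% and 19.5% of all genes, led by DLK2 (-0.87), the gamma-secretase subunit PSENEN (0.78) and RBPJ (-0.75). DLK2, like DLL1, was highest in the hypoxic Scr-si libraries, at 24.6 and 23.1 against 12.2 to 13.5 in the other 4. RBPJ was 39.6 and 39.8 in normoxia, 60.5 and 57.9 in hypoxia, and 38.4 and 31.7 in METTL4-si.

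In BFTC909 hypoxia 13 of 40 tested rose and 7 fell, beside 21.2% and 24.5% of all genes, led by the ligand-directed ubiquitin ligase NEURL1B (log2 0.99, SE 0.12, adjusted p = 0.000692, limma), the Deltex gene DTX3 (0.93) and DNER (-0.92). In BFTC909 METTL4-si 11 of 40 rose and 7 fell, beside 15.7% and 16.6% of all genes, led by PSEN2, the catalytic gamma-secretase subunit presenilin 2 (1.46), LFNG, a Fringe glycosyltransferase that modifies receptors (-0.89), and the corepressor TLE3 (0.84). PSEN2 was 8.503 and 8.05 in normoxia, 4.14 and 4.40 in hypoxia, and 13.1 and 13.8 in METTL4-si, with no overlap between groups. NEURL1B differed between the lines in its hypoxia response by -1.44 (adjusted p = 0.000174, limma), and MAML2, a Mastermind co-activator, in its METTL4-si effect by -1.27 (adjusted p = 0.000802). In these line differences 6 of the 40 tested were higher and 4 lower for hypoxia, beside 14.3% and 11.6% of all genes, and 4 higher and 8 lower for METTL4-si, beside 9.79% and 15.5%. PSENEN (-0.82) and NCSTN, another gamma-secretase subunit (-0.54), followed NEURL1B for hypoxia, and TLE3 (-1.16) and PSEN2 (-0.81) followed MAML2 for METTL4-si.

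In METTL4-OE 8 of 47 tested rose and 12 fell, beside 20.9% and 18.1% of all genes. DTX4, a ubiquitin ligase of the Deltex family, fell from 13.5 and 17.0 to 4.72 and 4.21 (log2 -1.56, SE 0.11, adjusted p = 1.47e-07, limma), whereas DNER (1.17) and NEURL1 (0.81) rose. In RP11-390F4.3-OE 14 of 47 rose and 14 fell, beside 28.0% and 24.8% of all genes, led by the Mastermind co-activator MAML3 (1.33), LFNG (-0.92) and the RBPJ corepressor SPEN (-0.81). SPEN was 379 and 386 with the control vector and 213 and 222 in RP11-390F4.3-OE. Between RP11-390F4.3-OE and METTL4-OE 19 of 47 were higher and 12 lower, beside 28.3% and 25.8% of all genes, led by DTX4 (1.59), MAML3 (1.24) and DNER (-1.20). In the mutant clones 3 of 47 were past 1.3-fold upward in both clones and 8 downward, beside 8.94% and 11.8% of all genes. Those lower were ADAM10 and ADAM17, the proteases that make the first cut of bound receptors, the gamma-secretase subunit APH1B, NUMB, an endocytic inhibitor of Notch, RFNG, HES6, SNW1 and CIR1, and those higher were DLK2, NEURL1B and TLE1. APH1B had log2 ratios of -1.24 and -1.44, ADAM10 of -0.86 and -0.61, and ADAM17 of -0.73 and -0.72.

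For the 5 members tested in all 3 replicated tables, the genes with the most similar pattern were found by Pearson's r of log2(value + 1), centered in each table, over 18 libraries and 13348 genes. These r are descriptions, since the libraries share groups, scaling and the libraries with markers of other cell types. NOTCH1 was nearest to GPC1 (r = 0.857) and PCYT2 (r = 0.831), and NOTCH2 to ERMP1 (r = 0.970) and PPT1 (r = 0.967). For NOTCH3 they were SYNGR1 (r = 0.967) and PCDHGB2 (r = 0.966), for JAG1 ACVR2B (r = 0.966) and SLC11A2 (r = 0.953), and for HES1 NFKBIE (r = 0.909) and TOX2 (r = 0.896). Among the members themselves NOTCH2 and NOTCH3 were closest (r = 0.794) and NOTCH2 and HES1 furthest apart (r = -0.557).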

How the data were processed

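RNA of FADU and BFTC909 cells was depleted of ribosomal RNA, made into stranded libraries with the Kapa HyperPrep RiboErase kit and sequenced in pairs on a NextSeq instrument. The authors used Trim Galore for trimming, HISAT2 for alignment on hg19, htseq-count for counting and edgeR's TMM for scaling. Versions and counting settings are not given in the sources used here. The values the authors deposited are a normalized signal, TMM-normalized CPM, in 4 tables. In the replicated tables, of which there were 3, all values (100%) were whole multiples of 1 read within 0.02 of a step. The mutant table lists only genes with at least 10 reads in every library, and its rows of unassigned reads (40.9% to 43.0% of a column) were left out. The authors' 4 tables of fold changes, log CPM, F statistics and p-values were not used.

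Groups came from the labels, and RP11-390F4.3-OE columns were assigned by elimination. The test was limma 3.58.1 (R 4.3.3), on genes that reached a value of 1 in 2 or more libraries, with the trend option on log2(value + 1). The pseudocount understates changes of low genes. The 3 groups of a table shared the spread, and Benjamini-Hochberg adjustment covered all genes tested. Line differences were contrasts over both knockdown tables. Coordinates and exon lengths were from GENCODE v44 mapped to GRCh37, promoters from RefSeq on GRCh38.p14. Identifiers matched a symbol for 18887 of 19505, 16721 of 17232, 17763 of 18316 and 15308 of 15719 genes. The procedure was tested on simulated data. Of 1.5-fold changes it recovered 25.4% in FADU hypoxia, 49.3% in BFTC909 hypoxia, 86.6% in METTL4-OE and 13.4% in the hypoxia line difference. A member that was not called may thus still have changed. Alternatives were pseudocounts of 0.1 and 5, other filters, no trend, median centering, edgeR 4.0.16 on whole reads, the compared groups alone, a replicate block, the 1.3-fold criterion and libraries left out. The text names each of the 10 members in each comparison, the 3 other pathway genes with the largest change among those called, METTL4, CA9 and SLC2A1 as checks of the labels, and the 2 genes most similar to a member. Members, lists and tests were chosen with earlier results of these data known. SLC2A1, a glucose transporter, was called higher in hypoxia and lower in METTL4-si in both lines. It was also called higher in normoxia in METTL4-OE (log2 1.00) and RP11-390F4.3-OE (log2 1.27) than with the control vector. Markers of fibroblasts, endothelium and leukocytes were also summed: leukocyte markers had no row, endothelial sums were 1.48 to 13.8, and fibroblast sums were at most 25.6 in FADU except 116 in METTL4-si replicate 1, and 1020 to 4652 in BFTC909. Replicates differed beyond counting noise, their chi-square divided by its degrees of freedom being 2.06 to 28.3.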

Additional observations from a re-analysis of the deposited data

Results flagged for a closer look

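The hypoxia responses of HES1 and NOTCH2 and the METTL4-si effect on HES1 differed between FADU and BFTC909 in a test of the difference itself. On the log2 scale, FADU minus BFTC909, the difference was 1.92 for HES1 and -0.72 for NOTCH2 in hypoxia, and -1.24 for HES1 in METTL4-si. No group had 4 or more libraries, so none was examined for single outlying libraries.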

How the results depend on the processing

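The number of members called moved by over 1.5 times under some settings. FADU hypoxia (2 of 9) had 1 call without the trend, with median centering or at 1.3-fold with an unadjusted p, and 6 with the compared groups alone. FADU METTL4-si (5 of 9) had 3 with median centering. BFTC909 hypoxia (2 of 6) had 4 with median centering and with the compared groups alone. RP11-390F4.3-OE against METTL4-OE (8 of 9) had 5 at 1.3-fold with an unadjusted p. The METTL4-si line difference (1 of 5) had 2 with a pseudocount of 0.1, no filter, a mean of at least 5, median centering, edgeR or at 1.3-fold with an unadjusted p. In the mutant clones 1 of 9 became 0 at 2-fold and 3 with either clone left out. With 1 library left out the calls ranged from 1 to 6 in FADU hypoxia, 1 to 7 in FADU METTL4-si, 2 to 4 in BFTC909 hypoxia, 0 to 6 in BFTC909 METTL4-si, 7 to 8 in METTL4-OE, 8 to 9 in RP11-390F4.3-OE, 5 to 9 between the overexpression groups, 2 to 2 in the hypoxia line difference and 0 to 3 in that of METTL4-si. A lone remaining library is then assumed to vary like the other groups. The 0 in BFTC909 METTL4-si was without Scr-si hypoxia replicate 1. HES4 in FADU METTL4-si reversed to -0.40 without METTL4-si replicate 1, and to -0.40 without the libraries with other markers, and was 0.44 without METTL4-si replicate 2. Where no value above shows it, the cause was not tested. Of the values of single members, 57 passed the threshold newly and 58 no longer passed it. Another 1103 changed in neither way, among them uncalled values whose direction changed. They also include mutant ratios, which were judged by their distance from the main value.

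Replicate numbers were not taken as pairs, since the correlation of same-numbered deviations was from -0.0652 to 0.154 in 8 group pairs. The exception was FADU normoxia and METTL4-si, at 0.648. Replicate 1 of both these groups was a marker-high library. With a replicate block the calls were 2, 5, 3, 4, 7, 9 and 8 in the FADU hypoxia, FADU METTL4-si, BFTC909 hypoxia, BFTC909 METTL4-si, METTL4-OE, RP11-390F4.3-OE and direct overexpression comparisons, and 2 and 2 in the line differences. DLL1, HES4 and HEY1 were too low to test where their reads were few.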
